A study of Mus musculus with 14 samples.

Results

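PRDM16 binding was examined at 8 genes of the trabecular myocardium, the sponge-like inner muscle layer of the embryonic ventricle: Nppa, Nppb, Gja5, Bmp10, Cpne5, Smpx, Etv1 and Has2. Chromatin bound by PRDM16 was pulled down from ventricles of mouse embryos at E13.5 (embryonic day) and sequenced (ChIP-seq). A peak was counted for a gene when its summit lay nearest to that gene among 21887 protein-coding genes of RefSeq on the build GRCm38, measured to the gene body. This gave 20 of the 17587 peaks of the wild-type (WT) whole-heart list. The groups used here were Prdm16cKO hearts (1 PRDM16 ChIP library), WT hearts (2 libraries), and the isolated right ventricle (RV) and left ventricle (LV) of WT embryos (2 libraries each). All carried the strain label C57BL/6, atria were removed, and crosslinking used EGS and formaldehyde. Prdm16cKO is a conditional knockout of Prdm16, and the labels do not say which Cre line or which cells carried the deletion. WT samples carry the label Mock. Every whole-heart sample pooled 3 hearts of a single genotype, and every RV or LV sample pooled 10 to 12 ventricles. Input libraries exist for each group and were not used here.

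Trabecular muscle forms when cardiomyocytes next to the endocardium grow into the lumen, while the outer wall becomes compact myocardium. Trabecular cells divide slowly, conduct fast and later contribute to the Purkinje system, and they are known for natriuretic peptides, the fast gap junction protein connexin 40 and the growth factor BMP10. PRDM16, a DNA-binding protein with zinc fingers that works through chromatin-modifying partners, is known for roles in brown fat, blood stem cells and heart muscle. ChIP-seq counts reads at bound chromatin and does not measure RNA, so that the tissue labels could not be checked against expressed marker genes.

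All 8 genes had at least 1 WT PRDM16 peak, against 32.5% of protein-coding genes. In 5 of them a peak overlapped a window around the start of the gene. Those 5 were Nppa, Nppb, Gja5, Bmp10 and Smpx. The window checked ran from 250 bases before to 50 bases after each RefSeq start. It was at hand for 7 of the 8 members, Has2 being the exception, and 5 of 7 overlapped a WT peak, against 1617 of 17492 protein-coding genes (9.24%). The members were chosen with earlier results of these data known, and whether they differ from all genes was not tested. Cpne5 and Etv1 had a window without a peak. The 250 bases before the start of the 5 genes are shown because a peak covers all or part of each. They come from RefSeq (GRCm38.p6) and are all on the plus strand, at chr4:148000472-148000721 for Nppa, chr4:147985650-147985899 for Nppb, chr3:97032152-97032401 for Gja5, chr6:87428744-87428993 for Bmp10 and chrX:157698723-157698972 for Smpx. Each runs 5′ to 3′ and ends next to the start. Capitals mark matches, on either strand, to the short motifs given after the sequences.
Nppa: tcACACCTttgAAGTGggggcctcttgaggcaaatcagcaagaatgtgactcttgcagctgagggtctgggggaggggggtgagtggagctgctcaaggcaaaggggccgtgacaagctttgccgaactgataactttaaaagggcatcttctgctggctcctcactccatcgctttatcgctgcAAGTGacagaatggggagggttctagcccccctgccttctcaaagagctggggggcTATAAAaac
Nppb: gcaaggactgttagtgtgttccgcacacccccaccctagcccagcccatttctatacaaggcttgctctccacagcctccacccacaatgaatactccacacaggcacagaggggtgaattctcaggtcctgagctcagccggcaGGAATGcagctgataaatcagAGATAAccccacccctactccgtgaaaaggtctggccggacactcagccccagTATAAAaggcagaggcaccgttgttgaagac
Gja5: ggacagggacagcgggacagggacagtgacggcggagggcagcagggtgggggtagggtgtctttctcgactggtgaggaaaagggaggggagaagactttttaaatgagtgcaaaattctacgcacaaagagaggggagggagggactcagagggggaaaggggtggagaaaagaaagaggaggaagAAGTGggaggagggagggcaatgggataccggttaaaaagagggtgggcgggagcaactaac
Bmp10: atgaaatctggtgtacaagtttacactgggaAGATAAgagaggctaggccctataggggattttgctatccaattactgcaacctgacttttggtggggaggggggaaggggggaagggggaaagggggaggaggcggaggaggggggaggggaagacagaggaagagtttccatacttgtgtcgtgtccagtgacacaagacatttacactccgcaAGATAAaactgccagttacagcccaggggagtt
Smpx: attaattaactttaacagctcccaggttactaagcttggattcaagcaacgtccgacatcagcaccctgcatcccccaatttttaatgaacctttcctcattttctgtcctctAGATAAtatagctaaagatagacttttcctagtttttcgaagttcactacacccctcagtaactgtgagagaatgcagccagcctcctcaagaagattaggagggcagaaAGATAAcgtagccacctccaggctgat

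AGATAA, a motif of GATA factors, stood in 3 of these 5 promoters, once in Nppb and at 2 places each in Bmp10 and Smpx, whereas 9.12% of 17492 promoters of the same length held them. AAGTG, a motif of NK2 factors such as Nkx2-5, stood in 2 of 5 (Nppa with 2 matches and Gja5 with 1), against 40.0% of all promoters. Of the 5, Nppa held AGGTGT, a motif of T-box factors, read on the minus strand 248 bases before the start, and 11.2% of all promoters did. Nppb held GGAATG, a motif of TEAD factors, 105 bases before the start, against 11.6% of all. TATAAA, the TATA box and a search added after the others were chosen, stood in Nppa and Nppb (2 of 5, against 12.4% of all). It began 9 bases before the start in Nppa and 31 bases before the start in Nppb. CANNTG, the E-box, is not marked. It stood in 2 of 5, against 62.7% of all, and in Nppa 1 of its matches shares 5 bases with the second AAGTG. Of the marked matches 10 lay under a peak and 2 outside, the one in Gja5 and the Bmp10 match 219 bases before the start. Only the letters given were searched, so that other forms of these motifs were neither marked nor counted. These matches describe letters in the windows, and binding of those factors was not measured. The GC content of the 5 windows was 54.4% in Nppa, 54.8% in Nppb, 56.4% in Gja5, 52.0% in Bmp10 and 42.8% in Smpx, with a median of 55.2% over all promoters.

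The natriuretic peptide genes carried 3 of the 20 peaks. Nppa encodes atrial natriuretic peptide and Nppb the B-type peptide, both released by stretched heart muscle, and the genes lie 13517 bp apart on chromosome 4. Nppa (gene ID 230899, 148000722 to 148002074) had 1 peak, at 148000092 to 148000965, with its summit 259 bases before the start. Its fold enrichment of ChIP over background was 10.1, a value given by the authors' peak caller as are all fold enrichments here. Nppb (gene ID 18158, 147985786 to 147987205) had 2 peaks. The stronger, at 147969078 to 147969867, lay 16.3 kb upstream with a fold enrichment of 12.0. The other, at 147985474 to 147986937, had its summit 37 bases before the start and a fold enrichment of 6.97. This summit lies inside the annotated gene, whose longest extent begins before the start used here. By normalized reads per kb of peak the upstream region had 32.0 in RV and 40.7 in LV, close to the 29.6 in RV and 39.9 in LV of the one at the start.

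A run of further peaks stood upstream of Nppb. Of the 9 WT peaks within 50 kb of a member but nearer to another gene, 3 were assigned to 2510039O18Rik and lay 19.8, 21.9 and 25.4 kb from Nppb, with fold enrichments of 7.90, 6.69 and 3.56. Together with the 2 Nppb peaks and the Nppa peak they formed a row of 6 peaks on chromosome 4 between 147960244 and 148000965. Another was at Clcn6, 36.8 kb beyond Nppa (2.80). Ppil1, a splicing-associated peptidyl-prolyl isomerase gene next to Cpne5, held 4 peaks at 14.4 to 19.5 kb from Cpne5, the strongest with a fold enrichment of 15.5, above every peak assigned to the 8 members. The last was a peak assigned to Arhgap25, 15.3 kb from Bmp10 (5.56). Which gene any of these peaks acts on was not measured.

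Gja5, which encodes connexin 40, the gap junction protein of trabecular and fast-conducting muscle, carried 6 peaks, the most of the 8 members, and 3.10% of protein-coding genes had as many. The gene (ID 14613) lies on chromosome 3 at 97032402 to 97053634. Its strongest peak was not at the start but 30.7 kb downstream of it and 9.42 kb beyond the gene, at 97062597 to 97063450, with a fold enrichment of 13.7. A pair of peaks lay further out, at 39.7 and 43.8 kb (5.004 and 5.26). Inside the gene there were weak peaks at 7.54 and 19.1 kb (2.70 and 2.71). The peak that overlapped the window at the start, at 97032034 to 97032309, had its summit 224 bases upstream and a fold enrichment of 5.10. It ended before the start itself.

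Bmp10, a secreted growth factor that the embryonic mouse ventricle needs to grow, had 4 peaks around the gene (ID 12154, chromosome 6 at 87428994 to 87434512), and 6.29% of genes had as many. The strongest lay 4.75 kb upstream at 87423905 to 87424636, with a fold enrichment of 10.7. Its peak at the start, with the summit 15 bases upstream, was among the weaker ones at 3.37, and those 7.999 and 14.4 kb downstream of the start had 3.14 and 4.84. Smpx, a small muscle protein of the costamere (gene ID 66106, chromosome X at 157698973 to 157752591), had a peak 1.32 kb upstream, at 157697459 to 157698664, with 9.54, and a second at the start, 29 bases upstream, with 5.90. In Nppb, Gja5, Bmp10 and Smpx the strongest peak was therefore away from the start, and in Nppa, which had a single peak, it was at the start.

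Cpne5, a copine that binds membrane lipids in the presence of calcium, had 2 peaks inside the gene (ID 240058, chromosome 17 at 29156521 to 29237790, minus strand). They lay 31.5 and 58.3 kb downstream of the start with fold enrichments of 3.20 and 6.67. Etv1, an ETS transcription factor that in mouse promotes fast conduction in trabecular and atrial muscle, had 2 weak peaks, both past the end of the gene. They lay 4.36 and 282.9 kb beyond the gene (ID 14009, chromosome 12 at 38780082 to 38870483), with fold enrichments of 4.43 and 2.70. The single peak of Has2, the enzyme that makes the hyaluronan of cardiac jelly, lay 26.4 kb outside the gene (ID 15117, chromosome 15 at 56665627 to 56694546), at 56720599 to 56721053, and had 4.01.

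**Figure D1:**
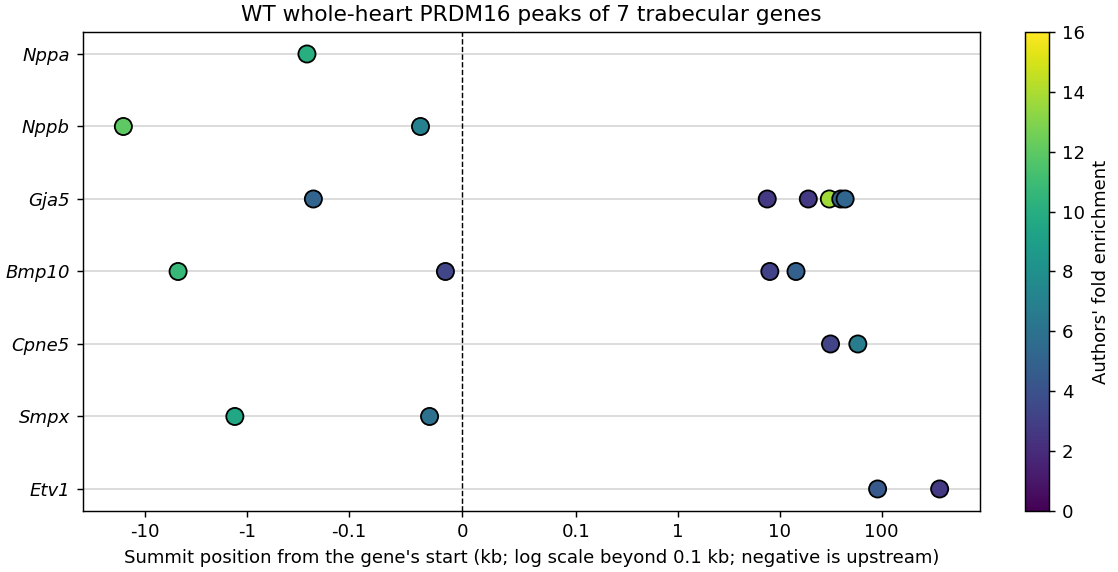
Summits of the WT whole-heart PRDM16 peaks of 7 genes (rows) by distance from the RefSeq start in kb, on a symmetric log axis, coloured by the authors' fold enrichment; Has2 is left out because no start was at hand. Nppa, Nppb, Gja5, Bmp10 and Smpx each have a summit within 1 kb upstream of the start, while Cpne5 and Etv1 do not.

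Among all WT peaks, the strongest peaks of the 5 genes with a peak overlapping the window at the start ranked highest of the 8 members. By fold enrichment, Gja5 ranked 159 of 17587, Nppb 277, Bmp10 415, Nppa 502 and Smpx 617. Thus 5 of the 20 member peaks were among the 1000 highest of 17587. Each rank is that of a gene's best peak, which favours genes with several peaks. Cpne5 ranked 1915, Etv1 6568 and Has2 8639. The 20 peaks had a median fold enrichment of 5.05 (2.70 to 13.7) and a median length of 514 bp, against 4.004 and 298 bp over all WT peaks. The median fold enrichment was 4.15 at 78 peaks of 18 other trabecular genes and 4.11 at 60 peaks of 10 compact layer genes, and none of these differences was tested, because peaks of a gene are not replicates.

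**Figure D2:**
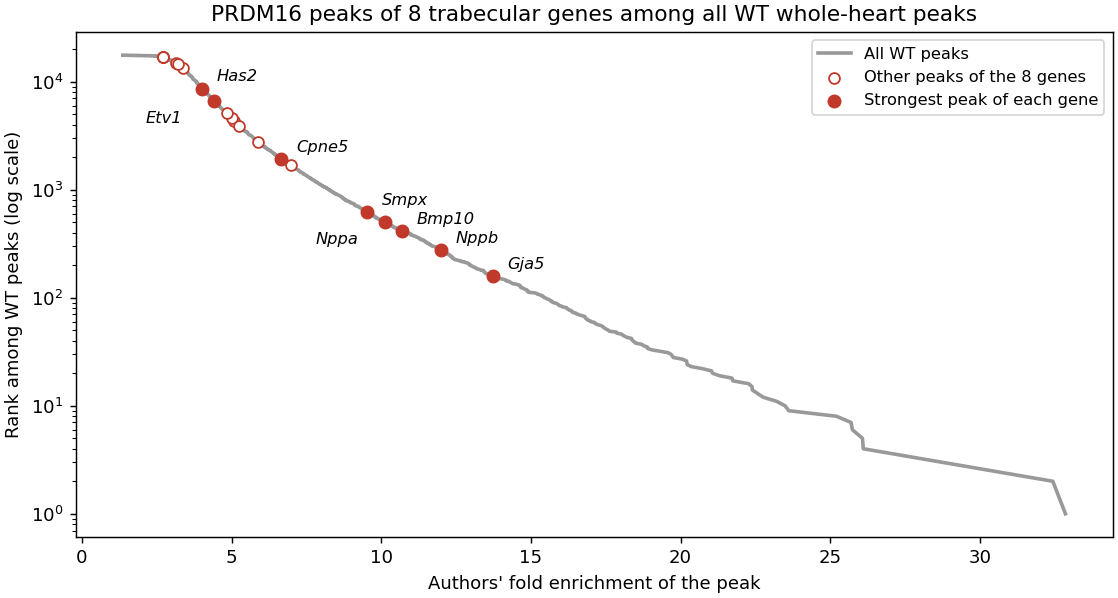
Rank of each WT peak by fold enrichment (log scale) against the authors' fold enrichment; filled points are the strongest peak of each of the 8 genes and open points their other peaks. Gja5, Nppb, Bmp10, Nppa and Smpx lie between ranks 159 and 617, and Has2 lies at 8639.

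Peaks of Prdm16cKO hearts were set beside those of WT hearts as a check on the specificity of the antibody. No member peak overlapped any of the 330 peaks called in Prdm16cKO hearts. That is 0 of 20, which allows a share of up to 15% by the limit of 3 counts and up to 16.8% by the exact 95% binomial interval. Both limits treat the 20 peaks as independent, although peaks of a gene are not replicates and the knockout list comes from 1 library. Over all WT peaks 197 of 17587 overlapped (1.12%), so that 0 of 20 is near what the whole list shows and is not a result particular to these genes. The nearest knockout peak lay 2.62 to 29.5 Mb from each member peak. The knockout list comes from 1 library, and the depth behind either whole-heart list is unknown. Signal below the peak caller's threshold in Prdm16cKO hearts was not measured.

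RV was set against LV at the same 20 regions, to ask whether binding at trabecular genes differs between the ventricles. No region and no gene passed the threshold of an adjusted p of 0.05. Values were lower in RV than in LV at 16 of 20 regions and in 7 of 8 genes taken over all their peaks, with Etv1 the gene that was higher in RV. By limma 49.3% of all regions and 50.1% of all genes with a peak were lower in RV. In the authors' deposited table, too, 16 of 20 member regions were lower in RV, against 50.2% of all regions. Whether these shares differ was not tested, because peaks of a gene are not replicates. The member peaks also had a higher median fold enrichment than all WT peaks (5.05 against 4.004). Reads per library were worked out from the table's RV and LV values. The RV libraries A and B held 281797 and 267808 reads in WT peaks, and the LV libraries A and B held 330443 and 184244. The letters carry no replicate number. Normalized reads below are reads times the authors' factor for the library. In tissue pools, fewer cells with bound PRDM16 and less binding per cell cannot be told apart.

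At the Nppa peak, RV libraries A and B had 39 and 50 reads, and LV libraries A and B had 95 and 27. Normalized, these were 33.8 and 48.2 in RV, against 70.7 and 39.6 in LV. The ventricles overlapped, because LV library A stood above the other 3 and LV library B lay between the RV libraries. Log2 RV over LV of normalized reads plus a pseudocount of 1 was -0.38 (SE 0.335, limma adjusted p = 0.899, n = 2 pools per ventricle), and without LV library A it was 0.03.

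Both Nppb regions had a lower mean in RV than in LV, and neither passed. The region at the start had 42.4 and 44.4 normalized reads in RV, against 61.0 and 55.7 in LV, and the ventricles did not overlap (log2 -0.42, SE 0.313, limma adjusted p = 0.874). The upstream region had 30.3 and 20.3 in RV, against 35.0 and 29.3 in LV. There RV library A exceeded LV library B (log2 -0.36, SE 0.333, limma adjusted p = 0.908). Summed over both, Nppb had 72.7 and 64.6 in RV and 96.0 and 85.0 in LV. The log2 of the sum was -0.39 (95% interval -0.83 to 0.05, limma adjusted p = 0.801 over 7104 genes), so that the interval reaches from a ratio of 0.561 to 1.03.

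Gja5 was lower in RV at all 6 of its regions, and none of them passed. Its strongest region had 75.3 and 43.4 normalized reads in RV, against 72.2 and 64.5 in LV. RV library A was the highest of the 4 and RV library B the lowest, so that the ventricles overlapped (log2 -0.25, SE 0.330, limma adjusted p = 0.955; 0.14 without RV library B). The region just upstream of the start had 8.66 and 4.82 in RV, against 13.4 and 10.3 in LV (log2 -0.76, SE 0.470). The ventricles did not overlap there, but with only 5 to 18 reads per library. They overlapped at the region 7.54 kb downstream (5.20 and 3.86 in RV, 4.47 and 13.2 in LV). They also overlapped 39.7 kb downstream (7.79 and 18.3 in RV, 11.2 and 16.1 in LV), but not 19.1 or 43.8 kb downstream. The regions at 7.54 and 19.1 kb held only 1 to 9 reads per library. Summed over 6 peaks, Gja5 had 128.2 and 103.2 in RV and 142.2 and 143.6 in LV (log2 -0.31, 95% interval -0.73 to 0.11, limma adjusted p = 0.849).

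No region of Bmp10 or Smpx passed. At its strongest region Bmp10 had 23.4 and 34.7 normalized reads in RV and 27.5 and 35.2 in LV, which overlap (log2 -0.12, SE 0.332), and without RV library A the log2 was 0.15. Bmp10 over 4 peaks had 57.2 and 64.6 in RV and 76.7 and 67.4 in LV, without overlap (log2 -0.24, 95% interval -0.69 to 0.22). Its region 7.999 kb downstream was higher in RV, on 6 and 9 reads there and 6 and 2 in LV. Smpx over 2 peaks had 65.8 and 55.9 in RV and 70.0 and 63.0 in LV, which overlap (log2 -0.13, 95% interval -0.59 to 0.33). The stronger Smpx region stood at 47.6 and 46.3 in RV and 52.8 and 45.4 in LV.

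Cpne5, Has2 and Etv1 rest on few reads. The stronger Cpne5 region had 4.33 and 5.79 normalized reads in RV, against 11.9 and 13.2 in LV, without overlap. It was the only member region with an unadjusted limma p under 0.05 (log2 -1.17, SE 0.480, limma adjusted p = 0.706), against 6.32% of all regions. Its other region did not go the same way (9.53 and 15.4 in RV, 9.68 and 14.7 in LV, log2 0.02), and over both peaks the log2 was -0.49 (SE 0.338). Has2 had 9.53 and 8.68 in RV, against 13.4 and 20.5 in LV (log2 -0.80, SE 0.424 in the test by gene, limma adjusted p = 0.777), without overlap. Etv1 was the reverse, with 13.9 and 14.5 in RV and 7.44 and 8.79 in LV over its 2 peaks (log2 0.74, SE 0.447, limma adjusted p = 0.831).

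**Figure D3:**
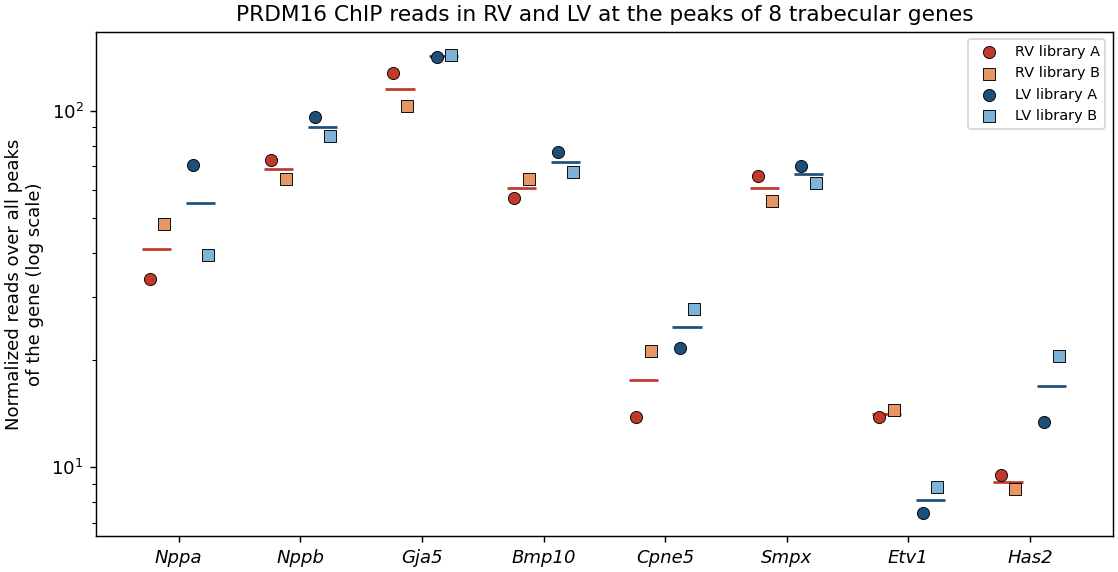
Normalized PRDM16 ChIP reads (log scale) summed over all peaks of each gene, in RV libraries A and B (red, left) and LV libraries A and B (blue, right), with bars at the mean of 2 libraries. Nppb, Gja5, Bmp10, Cpne5 and Has2 have both RV points below both LV points, Etv1 has both above, and Nppa and Smpx overlap.

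Counted by gene, 5 of 8 members had both RV libraries below both LV libraries, against 17.7% of 7104 genes with a peak, and 1 of 8 had both above, against 17.4%. By region 7 of 20 lay below and 3 of 20 above, against 17.9% and 17.6% of all regions. The limma test called 0 of 20 regions, against 5 of 17587 (0.0284%), and 1 of 20 at an unadjusted p under 0.05. By gene it called 0 of 8, against 4 of 7104 (0.0563%), and 0 of 8 at an unadjusted p under 0.05, against 6.67%. The authors' deposited table had 0 of 20 member regions and 0 of 17587 regions (0%) at an adjusted p under 0.05, and 0 of 20 at an unadjusted p under 0.05, against 0.483%. The median limma log2 of the members was -0.30 by region and -0.35 by gene, against 0.01 and 0.00 over all regions and genes. Without 1 library at a time, 12 to 15 of 20 regions and 6 to 7 of 8 genes were lower in RV, the 12 without LV library B and the 6 without LV library A. The pools are 2 per ventricle, the labels do not say whether they came from separate litters, and a p above the threshold does not show that the ventricles bind alike.

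**Figure D4:**
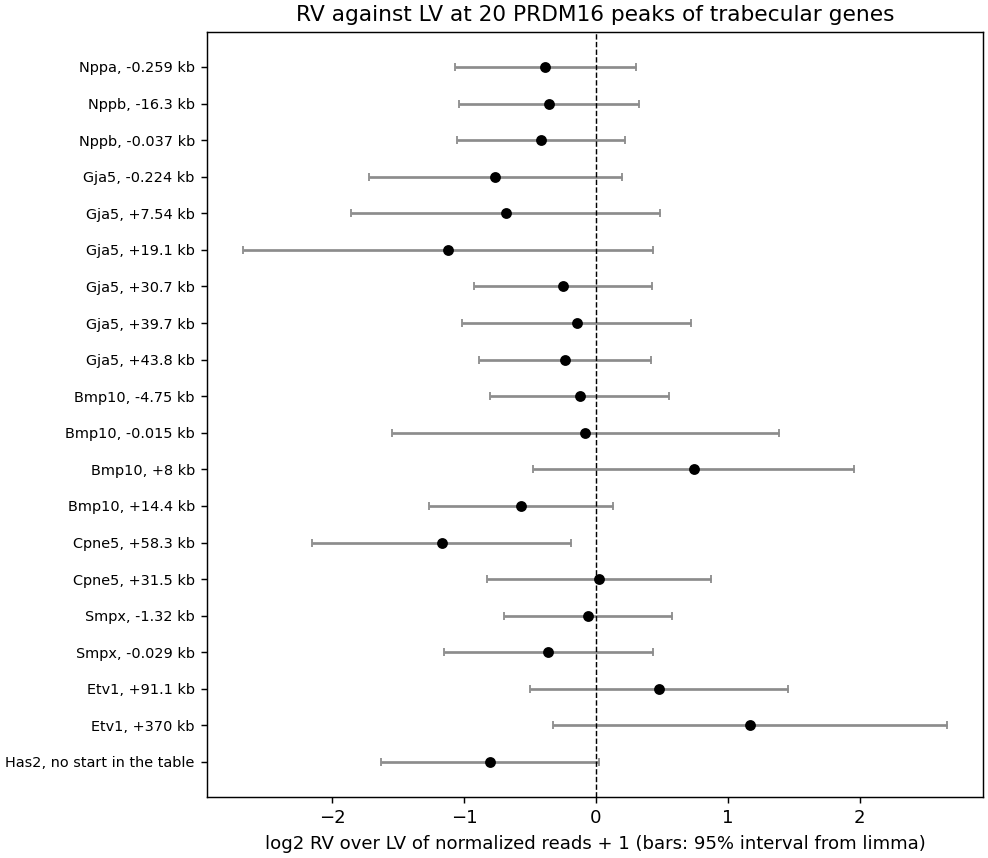
Log2 of RV over LV (normalized reads plus 1) at each of the 20 peaks, labelled by gene and distance of the summit from the start, with 95% intervals from limma; values left of 0 are lower in RV. Of the 20 points 16 lie below 0, and the interval leaves out 0 at the Cpne5 peak 58.3 kb downstream of the start alone.

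By level per length of peak, the member means ran from 20.01 to 46.9 normalized reads per kb in RV and from 19.9 to 63.1 in LV. Normalized reads per kb of peak in RV were highest for Nppa (38.6 and 55.2) and lowest for Has2 (20.9 and 19.1). Between them came Gja5 (39.4 and 31.7), Etv1 (34.0 and 35.6), Smpx (36.8 and 31.3), Nppb (32.3 and 28.7), Bmp10 (27.7 and 31.3) and Cpne5 (21.0 and 32.2). The libraries of each neighbouring pair in that order overlapped, except for Cpne5 and Has2. In LV, Nppa was again highest by mean (80.9 and 45.3) and Etv1 lowest (18.3 and 21.6). Among 421 other genes with a mean of at least 100 reads per library, St3gal1, a sialyltransferase, Pde4b, a cyclic AMP phosphodiesterase, and Retreg1, a receptor for autophagy of the endoplasmic reticulum, had the profile over the 4 libraries most like the mean of the members. Their root mean square differences from it were 0.0206, 0.0242 and 0.0263 on the log2 scale, with 8, 11 and 5 peaks.

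Of 18 other trabecular genes, 16 had a WT peak, and Cited1 and Notch1 had none. The strongest were assigned to Irx2 (15.2) and Irx3 (11.8), homeobox factors, Kcne1 (12.8), a potassium channel subunit, and Id2 (11.2), an inhibitor of helix-loop-helix factors. The Kcne1 peak lay inside the gene, whereas the others lay far outside, 253.3 kb from Irx2, 186.5 kb from Irx3 and 197.9 kb from Id2. None of their 78 peaks overlapped a Prdm16cKO peak. A peak overlapped the window at the start in 5 of the 12 with a window. Of the 78 regions 46 were lower in RV and 32 higher in the authors' deposited table, with a median log2 RV over LV of -0.13, against -0.27 for the 20 member regions and 0.00 for all. limma called 2 of the 78, both lower in RV, at Tbx5 and Hand1 (log2 -2.21 and -2.14, limma adjusted p = 0.0186 each, n = 2 pools per ventricle). Both are transcription factors that are also known for the left ventricle. The authors' deposited table called neither region, its smallest adjusted p over all regions being 0.444. Fits with an RV library left out cannot decide whether the limma calls hold, because a single RV pool remains. The called Tbx5 region, 1 of 9 at that gene, had 5 and 8 reads in RV libraries A and B, against 50 and 17 in LV libraries A and B. The strongest Tbx5 region had 33.4 in RV and 30.7 in LV in the authors' deposited table (log2 0.12). Of 10 compact layer genes 9 had a peak, 29 of their 60 regions were lower in RV in the authors' deposited table and 31 were higher, and 2 of 7 had a peak over the start. Whether these lists differ from the members was not tested.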

How the data were processed

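The labels describe 14 samples in 8 groups, 7 PRDM16 ChIP and 7 input libraries. Per the submitters' processing notes, which give no role or order, the tools were MACS2 2.1.1.20160309, BWA 0.7.12-r1039, DESeq2 and HOMER, and the builds mm10 and GRCm38. How replicates were pooled for peak calling and which test gave the p-values are not given in the sources used here. Peak lists as deposited by the authors hold a score (10 times the -log10 q, rounded down), a fold enrichment (ratio of ChIP to background), the -log10 p and -log10 q, and a summit offset. The deposited RV and LV table holds signal per ventricle, log2 values, an adjusted p-value and the p-value behind it, per the file headers; its log2 is RV over LV.

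Each deposited signal of a ventricle was 0.5 plus the average, over its libraries, of whole reads scaled by a factor (0.866 and 0.965 in RV libraries A and B, 0.744 and 1.47 in LV libraries A and B), with 1 solution at 100% of 17587 regions (largest residual 1.2e-11, tolerance 1e-07). The median peak held 9 and 8 reads in RV and 10 and 6 in LV. Reads times factor plus a pseudocount of 1 were tested on a log2 scale with limma 3.58.1 in R 4.3.3 (mean-variance trend, no filter on low values), by region and by gene, with Benjamini-Hochberg adjustment over all regions or genes; the scripts were tested on simulated data. Overlap with knockout peaks meant at least 1 bp. Intervals and limits from counts cover counting error alone. Members and lists were chosen with earlier results of these data known. Named were all members, with values for the strongest peak, the peak nearest to the start and any region with an unadjusted p under 0.05, the 3 most alike genes, and up to 4 other trabecular genes with the strongest peaks; Tbx5 and Hand1 are named because limma called them. Alternatives were other distances, thresholds, pseudocounts, a minimum of 8 reads, scaling by reads in peaks and leaving out each library. Other steps ran in Python 3.11.15 with matplotlib 3.10.9, scipy 1.17.1, pandas 2.3.3 and numpy 2.4.6.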

Additional observations from a re-analysis of the deposited data

How the results depend on the processing

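The count of 20 member peaks was 28 with every summit within 50 kb of a member, 15 within 10 kb of the gene and 14 with -log10 q limited to 5 or more, and it was 11 with fold enrichment limited to 5 or more. A peak was left for 8 of 8 members at the -log10 q, 7 within 10 kb (not Has2) and 6 at the fold enrichment (not Etv1 or Has2). Overlap with knockout peaks stayed at 0 with a gap of up to 1000 bp, with 50% of the WT peak covered and with that limit on -log10 q. For RV against LV, 0 of 20 regions and 0 of 8 genes were called by limma under each pseudocount, scaling and left-out library, and 0 of the 15 regions and 0 of the 8 genes left by the minimum of 8 reads. Of 90 values of single regions and genes under settings other than a left-out library, 90 kept their sign and their side of the threshold, and the smallest adjusted p under any setting was 0.353. Only 13 of the 20 regions were followed singly, and the others entered only the counts of regions lower in RV given above. Among the 13, leaving out a library turned the sign at uncalled regions. The log2 ranged from -0.79 to 0.029 at Nppa (as region and as gene) and from -0.64 to 0.14 at the strongest Gja5 region. At the Bmp10 regions upstream and at the start the ranges were -0.40 to 0.15 and -0.51 to 0.35. At the Smpx regions upstream and at the start they were -0.17 to 0.047 and -0.79 to 0.064, and at the weaker Cpne5 region -0.30 to 0.35. With a left-out library its ventricle is a single pool, assumed to vary like the others. Over all regions limma called 0 without RV library A or B, 90 without LV library A and 22 without LV library B. No paired analysis was possible because the columns of the table carry no replicate number. Depth limits single regions, since the median member region held 13.3 reads per library.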
